A study of Mus musculus with 19 samples.

Results

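Intron chains absent from the mouse annotation were studied in neural progenitor cells with and without Mettl14. An intron chain is the ordered list of intron ends of a transcript. A chain was taken when it occurred in no transcript of GENCODE M21, neither as a whole chain nor as an uninterrupted stretch of one, and when exactly the same chain stood in the native RNA assembly and in the direct cDNA assembly of 1 genotype. Of 59112 distinct chains in the 4 StringTie assemblies, 12067 were in both chemistries of a genotype, 9094 of these were annotated, and 2217 were unannotated by this rule. The KO held 1233 of them and the WT 1489, with 505 in both.

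The cells were isolated from cortices of Mettl14 conditional knockout (KO) and Mettl14 wild-type (WT) mouse embryos, and cultures of both genotypes received 20 ng/ml of each of the growth factors FGF2 and EGF. The labels do not say what drives the Cre recombinase, nor whether replicates came from separate embryos. For long reads, sequenced on nanopores either as native RNA or as direct cDNA, 2 samples per genotype and chemistry were pooled into 1 assembly, so that long-read values carry no replicate error and no test. Ladder-seq libraries, in which mRNA was first separated into 7 length bands, came from 4 KO and 4 WT samples and were used for the levels of host genes.

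Mettl14 and Mettl3 form the core of the mRNA methyltransferase whose product is N6-methyladenosine, or m6A. In mammals m6A is known to be concentrated in long exons and around stop codons, and it is bound by reader proteins that act on splicing, translation and decay. No m6A was measured in the values used here. Splicing removes introns between a donor, which nearly always begins with GT, and an acceptor, which nearly always ends with AG. A chain can differ from the annotation by a new splice site, by a new junction between annotated sites, by a read-through that joins exons of neighbouring genes, or by a new combination of junctions that are all annotated.

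Sequences are shown first for 7 introns, in 6 genes, that lay inside a single annotated exon, because KO chains held 69 introns of this kind and WT chains 23. Each was read from the GENCODE M21 transcripts (GRCm38), 10 exonic bases and 10 intronic bases at the donor, and 10 intronic and 10 exonic bases at the acceptor, with the first 2 and last 2 bases of the intron in capitals. All 7 introns shown were in KO assemblies and in neither WT assembly.
Fbxl5 donor, chr5:43758412-43758507, minus strand: ggttgttacaGTaaggacat
Fbxl5 acceptor: tgttgtacAGggacagcttt
Rhoq donor, chr17:86999267-86999811, plus strand: tctccagatgGTaagacctt
Rhoq acceptor: gtccttacAGgtacacgtag
Inka2 donor, chr3:105716816-105716955, plus strand: tgcagacctgGTgggtaact
Inka2 acceptor: acatttttAGgaagttcttg
Traf4 donor, chr11:78160000-78160256, minus strand: aacggcagtgGTgagggcac
Traf4 acceptor: ttcccaccAGgacatccgaa
Trib2 donor of the coding intron, chr12:15793709-15793916, minus strand: gagcctggggGTaatgctgt
Trib2 acceptor of the coding intron: ttttctacAGattttagtgt
Trib2 donor of the 3′ UTR intron, chr12:15792082-15793581, minus strand: cacatagcagGTaccaggag
Trib2 acceptor of the 3′ UTR intron: ttcactctAGtatgtggcat
Sertm1 donor, chr3:54897257-54899329, minus strand: caacctagagGTgtgtagta
Sertm1 acceptor: ctctctgcAGgtgcgctgcc

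New junctions between annotated sites join exon ends that no annotated transcript joins. In the next sequences the last 14 bases of the upstream exon are in lower case and the first 14 bases of the downstream exon in capitals. They are shown for Mettl14, the gene targeted in the KO, and for Ptprz1 and Fabp5, hosts of abundant chains with an exon skip.
Mettl14, intron chr3:123371486-123376144, minus strand: aacactcctcccatGAGCATTGCCTGAT
Ptprz1, intron chr6:23022285-23024944, plus strand: ctgaagaatttgagGAAGTGCAGAGCTG
Fabp5, intron chr3:10012719-10015471, plus strand: catgaaagagctagACGGTCTGCACCTT
New donors in KO-only chains are shown for Rbm15 and Heca, again with the first 2 intronic bases in capitals.
Rbm15 donor, chr3:107332477-107332496, minus strand: cttcggtgatGTaagtgtca
Heca donor, chr10:17915715-17915734, minus strand: ctggtaccagGTaaagcgaa

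Mettl14 (ENSMUSG00000028114.16) checked the genotype labels. It stood at 7.03, 9.25, 7.59 and 7.92 CPM (counts scaled to library size by TMM) in the 4 KO ladder libraries, against 28.6, 23.2, 32.6 and 31.6 CPM in the 4 WT ladder libraries. The groups did not overlap, and the level fell by 1.87 on the log2 scale (SE 0.133, adjusted p = 5.4e-07, edgeR). In bulk RNA, fewer cells of a type and less RNA per cell cannot be told apart. The KO held 2 unannotated Mettl14 chains, and neither was in a WT assembly. One joined exons across 3 annotated exons of 352 bases, at 2.61 TPM in native RNA and 0.146 TPM in cDNA. The other ended in a new last exon at chr3:123323015-123323531, outside the annotated gene, at 7.74 TPM in native RNA and 0.713 TPM in cDNA. It made up 56.5% of the coverage of Mettl14 transcripts in native KO RNA and 42.5% in KO cDNA. From these shares a coverage of 11.4 in native RNA and 11.2 in cDNA would be reached in WT. Mettl14 is the gene targeted in the KO. In its chains an altered gene sequence and a change of splicing cannot be told apart here, and neither was tested.

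The assemblies differed in depth, and the WT ones were deeper. Assembled coverage came to 1.37 gigabases in KO and 1.69 in WT native RNA, and to 6.25 gigabases in KO and 7.92 in WT cDNA. Ladder totals ranged from 104900000 to 118198000 estimated counts in KO and from 103752000 to 126922000 in WT. Summed neural progenitor markers were at 5500 to 6700 CPM in KO and 8100 to 8480 CPM in WT, with 2 of the 9 markers higher and 2 lower in KO. All 5 neuron markers were lower in KO (summed 15.4 to 18.2 CPM, against 41.6 to 46.6 CPM in WT), and all 3 astrocyte markers were higher (222 to 256 CPM, against 114 to 140 CPM). Of 4 oligodendrocyte markers 1 was higher and 2 were lower in KO (10 to 12.1 CPM, against 19.1 to 31.4 CPM in WT). All 3 fibroblast markers tested were higher in KO (2.91 to 3.67 CPM, against 0.277 to 0.603 CPM in WT), as were both microglia markers tested (1.47 to 2.18 CPM, against 0.878 to 1.29 CPM in WT). Of the 2 endothelium markers tested 1 was higher and 1 lower (3.39 to 4.11 CPM in KO, against 3.63 to 4.74 CPM in WT). Aif1, Cx3cr1, Cdh5 and Lum were too low to be tested. Ddx3y, a Y-linked gene, was at 4.39 ± 0.632 CPM in KO and 0.0129 ± 0.0150 CPM in WT ladder libraries (SD, n = 4 each), but at 4.64 TPM in KO and 15.2 TPM in WT native long reads, the opposite direction. The part of any of these in the results below was not tested.

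Unannotated chains took a similar share of the chains found in both chemistries of each genotype. The share was 14.4% of 8581 chains in KO (95% Wilson interval 13.6 to 15.1) and 14.95% of 9959 chains in WT (14.3 to 15.7). These intervals cover counting error only. Host genes could be named for 1205 KO chains, in 991 genes, and for 1435 WT chains, in 1116 genes. Hosts were protein coding for 92.7% of KO chains and 91.1% of WT chains. The chains were less abundant than annotated ones: their median was 6.04 TPM in KO and 5.54 TPM in WT native RNA, where annotated chains had medians of 28.7 TPM in KO and 23.8 TPM in WT. In cDNA the medians were 0.470 TPM in KO and 0.377 TPM in WT, against 2.49 and 1.73 TPM for annotated chains of KO and WT. Even so, 224 KO chains and 257 WT chains made up 50% or more of their host gene's coverage in native RNA.

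The make-up of the chains differed between the genotypes. New junctions of known sites were 298 of 1233 chains in KO (24.2%, 21.9 to 26.6) and 234 of 1489 in WT (15.7%, 13.96 to 17.7). New combinations of annotated junctions were 568 in KO (46.1%, 43.3 to 48.9) and 822 in WT (55.2%, 52.7 to 57.7). New sites were at 29.1% in KO and 27.9% in WT, with overlapping intervals. An exon that ran through an annotated intron was found in 99 KO chains (8.03%, 6.64 to 9.68) and 198 WT chains (13.3%, 11.7 to 15.1). The same directions were seen over all unannotated chains of each single assembly, where new junctions were 21.7% in KO and 15.3% in WT native RNA, and 18.3% in KO and 14.3% in WT cDNA. Exons through an annotated intron were 13.7% in KO and 20.0% in WT native RNA, and 17.1% in KO and 24.3% in WT cDNA. Among chains at 1 TPM or more in both chemistries, new junctions were 60 of 311 in KO (19.3%, 15.3 to 24) and 47 of 315 in WT (14.9%, 11.4 to 19.3), with overlapping intervals. With 1 assembly per genotype and chemistry these differences have no replicate check.

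**Figure D1:**
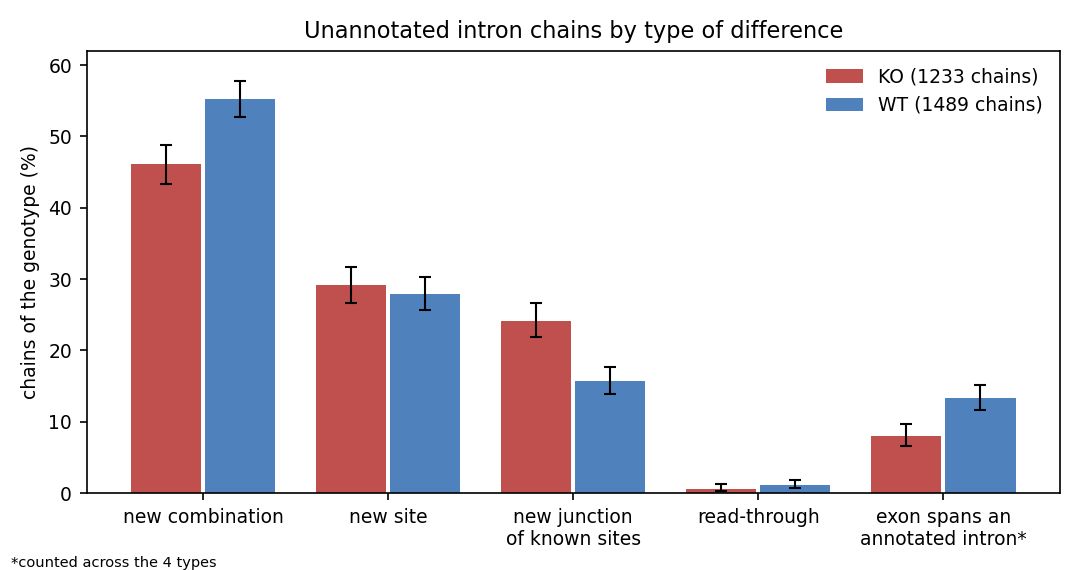
Share of unannotated chains of each type (y axis, percent of the genotype's chains) in KO (red, left) and WT (blue, right), with 95% Wilson intervals for counting error. New junctions of known sites were at 24.2% in KO and 15.7% in WT, and new combinations at 46.1% in KO and 55.2% in WT.

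Introns inside a single annotated exon, which the annotation treats as unspliced, were more frequent in KO. They were singled out after the values of all types and site classes had been seen. KO chains held 69 such introns in 59 genes and WT chains 23 in 20 genes. Of the 81 distinct introns, 39 (in 35 genes) occurred in KO assemblies only, 5 (in 5 genes) in WT assemblies only and 37 in assemblies of both. Over all chains of an assembly, GT-AG introns of this kind numbered 168 in KO and 85 in WT native RNA, and 561 in KO and 323 in WT cDNA. Per 1000 distinct introns this was 2.22 in KO and 0.963 in WT native RNA, and 4.49 in KO and 2.5 in WT cDNA. The WT assemblies were deeper, and the part of depth in this difference was not tested.

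The 39 introns found in KO assemblies only shared several features. They had GT-AG ends in 38 cases, while 33 of the 37 introns found in both genotypes did. Spliced aligners favour GT-AG, so that these ends are not independent evidence. Their exons were long, with 35 of 39 at 1000 bases or more (22 of 37 for introns found in both). Of the 39, 26 lay in a last exon and 11 in the single exon of a gene (19 and 9 of 37 for introns found in both). They fell in coding sequence in 12 cases, across coding sequence and UTR in 13 and in 3′ UTRs in 13. For introns found in both, these counts were 10, 7 and 6 of 37. Median length was 208 bases for the 39 introns and 153 bases for introns found in both. The donor letters GTNAG were present in 11 of 38 GT-AG introns (28.9%) and in 27.3% of the 33 GT-AG introns found in both genotypes. They followed in 6.31% of the 7507 GT in the RNA sequence of all exons with a GT-AG intron of this kind, whatever the genotype. C or T stood before the acceptor AG in 36 of 38 (94.7%), against 46.6% of 9938 AG in the same exons and 78.8% of the introns found in both. The submitters' notes list minimap2. Its spliced mode by default also favours A or G after the donor GT and C or T before the acceptor AG. The C or T before the acceptor AG is therefore a description and no independent sign of splicing. At the donor the favoured base is the N of GTNAG, which was free to be any base in this count. The part of the aligner in the share of GTNAG was not tested, and that share is given as a description too. The bases that could be assigned to either end of the intron had a median of 2, and reached 8 or more in 1 case, a 42-base gap with GT-GT ends in Diaph3.

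The same exons were transcribed in WT. In 34 of the 39 cases both WT assemblies covered the exon unspliced, and in 38 at least 1 did. Median unspliced coverage was 34.3 in KO and 28.0 in WT native RNA, and 35.8 in KO and 33.5 in WT cDNA. In KO the median share of coverage with the intron removed was 12.9% in native RNA and 16.0% in cDNA. Applied to the WT coverage of the exon, the KO share predicted a spliced coverage of 10 or more in both WT assemblies at 6 introns and of 3 or more in both at 18. The 6 lay in Fbxl5, Inka2, Traf4, Trib2 (the coding and the 3′ UTR intron of 1 chain) and Diaph3 (the 42-base gap with GT-GT ends). In at least 1 WT assembly the predicted coverage was 10 or more at 16 introns and 3 or more at 30, among them Rhoq, with 94.6 in native RNA. At the rest the prediction was below 3 in both WT assemblies, too low for this depth to show the intron. The predictions use KO shares from 1 pooled assembly per chemistry, of introns chosen for being in KO assemblies only. Such shares could differ widely between chemistries, as in Trib2 (7.91% in KO native RNA and 100% in KO cDNA for the coding intron). Absence from WT was therefore not tested at any of the 39 introns. Where the intron was found in both genotypes, the spliced share was higher in KO at 18 and lower at 13 of 33 introns in native RNA, and higher at 16 and lower at 14 of 37 in cDNA.

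**Figure D2:**
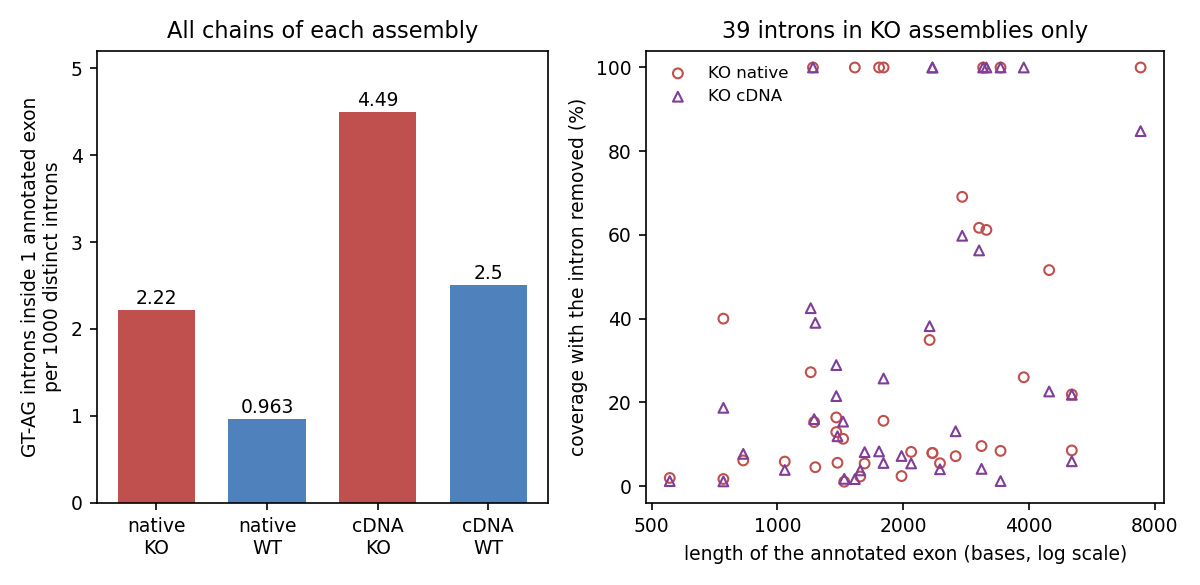
Left, GT-AG introns inside 1 annotated exon per 1000 distinct introns of each assembly, KO (red) beside WT (blue), with 2.22 in KO and 0.963 in WT native RNA and 4.49 in KO and 2.5 in WT cDNA. Right, the 39 introns found in KO assemblies only, by exon length (x axis, bases, log scale) and by percent of KO coverage with the intron removed (y axis), in native RNA (circles) and cDNA (triangles).

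Fbxl5, which encodes an iron-sensing F-box protein, lost 96 bases of coding sequence in its last exon. Spliced coverage was 33.7 in KO native RNA and 39.3 in KO cDNA, 61.7% and 56.3% of the coverage there, and 0 in both WT assemblies, whose unspliced coverage was 27.4 in native RNA and 39.7 in cDNA. Rhoq, a small GTPase, lost 545 bases of 3′ UTR at a spliced coverage of 109 in KO native RNA (61.2%) and 39.7 in KO cDNA. WT native RNA covered that exon unspliced at 155, and WT cDNA held neither form. Trib2, a pseudokinase, had a 208-base coding intron and a 1500-base 3′ UTR intron in 1 KO chain, at 10.4 in KO native RNA (7.91%) and 90.0 in KO cDNA, where no unspliced form was assembled. WT covered the same exon unspliced at 257 to 261 in native RNA and 333 in cDNA. Inka2, an inhibitor of the kinase Pak4, lost 140 coding bases at 5.17 in KO native RNA (51.6%) and 14.5 in KO cDNA (22.6%), against unspliced coverage of 87.8 and 102 in WT native RNA and cDNA. Traf4, an adaptor of receptor signalling, lost 257 coding bases in only 5.46% of KO native and 4.02% of KO cDNA coverage. Sertm1, which encodes a small membrane protein, lost 2073 bases across coding sequence and 3′ UTR in 69.1% of KO native and 59.8% of KO cDNA coverage.

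Some loci do not allow a comparison. Pou3f3, a transcription factor of neural progenitors encoded by a single exon, lost 2648 bases in 100% of KO native and 84.8% of KO cDNA coverage, but neither WT assembly covered that stretch unspliced. Arxes2 has a near-identical neighbour, Arxes1, and its 137-base intron took 100% of KO native but 1.67% of KO cDNA coverage, so that its reads may be split between copies and its value is uncertain. The 5 introns found in WT assemblies only lay in Gm4204, Gm10941, Cdca8, Gm42047 and Tmod2. Applied to the KO coverage of the exon, the WT share predicted a spliced coverage of 10 or more in both KO assemblies at 1 of the 5. This was Gm4204, with 46.1 in native RNA and 21.9 in cDNA. The prediction was 3 or more in both KO assemblies at 3 of the 5.

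New junctions of known sites were mostly exon skips. Distinct junctions numbered 286 in KO and 223 in WT, of which 267 in KO and 192 in WT skipped exons of 1 annotated transcript, and 235 in KO and 178 in WT skipped exactly 1 exon. The skipped length was a multiple of 3 in 42.3% of KO and 42.2% of WT skips. Fabp5, a fatty acid binding protein, lost a 173-base exon in a KO-only chain at 24.5 TPM in native RNA and 7.04 TPM in cDNA, 2.04% and 7.05% of the gene. Abhd17a, a depalmitoylase, lost a 195-base exon in a KO-only chain at 24.1 TPM in native RNA and 1.31 TPM in cDNA.

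Ptprz1, a receptor phosphatase of radial glia, skipped a 21-base exon in both genotypes. The shared chain had 88.4 TPM in KO and 51.4 TPM in WT native RNA, and 10.6 TPM in KO and 7.06 TPM in WT cDNA. A second chain with the same junction was found in WT only, at 117 TPM in native RNA and 9.30 TPM in cDNA. The shared chain made up 58.3% of the gene's coverage in KO and 11.9% in WT native RNA, and 53.4% in KO and 20.1% in WT cDNA. These are shares of 1 chain, not of the exon skip. The WT shares leave out the second chain, which carried the same junction at a higher TPM in both WT chemistries. The shares therefore do not measure how skipping of the exon differed between the genotypes. The gene itself had 555, 437, 342.5 and 404 CPM in KO ladder libraries, against 1375, 1423, 1067 and 945 CPM in WT ladder libraries. The groups did not overlap, and the gene fell by 1.47 on the log2 scale (SE 0.181, adjusted p = 3.9e-05, edgeR). In Sept7 and Mpc1, abundant shared chains had junctions that passed over annotated exons of 2 and 4 bases, and these chains took 96.0% (KO) and 97.1% (WT) of Sept7 and 100% of Mpc1 coverage in native RNA of each genotype. Whether long reads could be aligned to exons this short was not tested, so these exons may be present in the RNA.

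Among new-site chains, introns inside exons were in 66 of 359 chains in KO (18.4%) and 23 of 416 in WT (5.53%). Shifted donors were in 32.0% of KO and 32.7% of WT new-site chains, and shifted acceptors in 27.9% of KO and 30.8% of WT chains. New first exons were in 19.8% of KO and 27.9% of WT chains, and new internal exons in 11.1% of KO and 15.6% of WT chains. Rbm15, an adaptor subunit of the m6A writer complex, had a KO-only chain at 64.1 TPM in native RNA and 2.05 TPM in cDNA, whose donor lay 2272 bases inside the annotated exon. Rbm15 stood at 59.7, 58.4, 59.7 and 56.7 CPM in KO ladder libraries, against 11.2, 13.5, 12.8 and 9.39 CPM in WT ladder libraries. The groups did not overlap, and the gene rose by 2.32 on the log2 scale (SE 0.124, adjusted p = 7.1e-08, edgeR). The gene was not assembled as a multi-exon transcript in WT native RNA, so absence of the chain there cannot be told apart from its lower level.

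Among KO-only chains expected at a coverage of 10 or more in both WT assemblies from their share of the host gene, the 4 with the highest shares were Fbxl5, described above, and chains of Ppp3ca, Heca and Mfsd11. Ppp3ca, the catalytic subunit of calcineurin, held a new 73-base internal exon at 73.8 TPM in KO native RNA (100% of the gene) and 6.10 TPM in KO cDNA (48.6%). Heca had a donor 733 bases inside its exon at 35.3 TPM in KO native RNA and 2.78 TPM in KO cDNA, 100% of the gene in each. Mfsd11 had a donor moved by 5 bases at 48.5 TPM in KO native RNA (68.0%) and 2.59 TPM in KO cDNA (57.8%). This distance lies within the 10 bases that an alternative rule allowed for an annotated site. How exactly long reads place such a junction was not tested. In ladder libraries Ppp3ca was at 129 ± 9.77 CPM in KO and 134 ± 12.3 CPM in WT, and Mfsd11 at 41.7 ± 3.60 CPM in KO and 25.2 ± 2.48 CPM in WT (SD, n = 4 each), and Mfsd11 rose by 0.73 on the log2 scale (adjusted p = 0.00018, edgeR). Heca was at 18.7 ± 1.24 CPM in KO and 23.1 ± 2.95 CPM in WT (adjusted p = 0.038, edgeR), a call that was lost without any 1 of KO 1, 2, 3 or 4 or WT 1 or 2 (adjusted p 0.0502 to 0.113) and with no filter on low counts (adjusted p = 0.173).

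Chains found in 1 genotype were mostly below what the other assemblies could show. Of 366 KO-only chains, 325 of 357 with a host had that host assembled in both WT chemistries, but 25 were expected at a coverage of 10 or more there. Of 512 WT-only chains, 435 of 486 with a host had it assembled in both KO chemistries, and 16 reached that expected coverage. WT-only examples with a high share were Fam13c (29.6 TPM in WT native RNA, 62.1% of the gene), Tox3 (39.9 TPM, 100%), Trappc13 (28.9 TPM, 56.7%) and AU022252 (10.3 TPM, 85.6%), all new combinations of annotated junctions. FLAIR, a second assembler, listed 114 of the KO-only chains in a WT assembly (31.1%) and 143 of the WT-only chains in a KO assembly (27.9%). Its sites were nearly all annotated, so it could hardly list the 140 KO-only and 175 WT-only chains with a new site. Both percentages include these chains and are therefore too low for the other types.

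In the 505 chains found in all 4 assemblies, levels differed between the genotypes about as often as in annotated chains. At least 2-fold higher in KO in both chemistries were 59 chains (11.7%), beside 10.8% of 5797 annotated chains, and at least 2-fold lower were 23 (4.55%), beside 4.81%. The median log2 KO over WT was 0.14 in native RNA and 0.20 in cDNA, and 0.03 and 0.31 for annotated chains. A chain of Srsf2, a splicing factor of the SR family, had 324 TPM in KO and 3.45 TPM in WT native RNA, and 21.02 TPM in KO and 1.45 TPM in WT cDNA. It made up 38.2% of the gene in KO and 1.67% in WT native RNA, and 40.5% in KO and 7.52% in WT cDNA. Srsf2 itself had 143, 158, 158 and 156 CPM in KO ladder libraries, against 92.5, 82.7, 103 and 105 CPM in WT ladder libraries, with no overlap, and rose by 0.68 on the log2 scale (SE 0.107, adjusted p = 0.00025, edgeR).

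The other chains highest in KO lay in Hras, Dtymk and Rsrc1. Hras, a small GTPase, had 26.9 TPM in KO and 1.24 TPM in WT native RNA, and 2.75 TPM in KO and 0.132 TPM in WT cDNA. Dtymk, a thymidylate kinase, had 45.9 TPM in KO and 2.38 TPM in WT native RNA, and 2.56 TPM in KO and 0.284 TPM in WT cDNA. In ladder libraries Dtymk rose by 0.84 on the log2 scale (125 ± 25.5 CPM in KO and 69.8 ± 5.36 CPM in WT, SD, n = 4 each, adjusted p = 0.00041, edgeR). Hras had 221 ± 57.0 CPM in KO and 172 ± 10.3 CPM in WT and did not pass (adjusted p = 0.073, edgeR), though it did without KO 3 (adjusted p = 0.0269), with no filter (0.0255) and in DESeq2 (0.0395). Rsrc1 had a higher chain (13.9 TPM in KO and 1.82 TPM in WT native RNA) but a lower gene, at 14.9 ± 6.30 CPM in KO and 27.7 ± 8.69 CPM in WT ladder libraries (adjusted p = 0.044, edgeR), a call lost without KO 1, 2 or 4 or WT 1, 2 or 4 (adjusted p 0.1 to 0.13) and with no filter on low counts (adjusted p = 0.178).

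Among chains with a named host gene, the lowest in KO lay in Map2, Gtf2i, Trim37 and Sept6. Map2, a microtubule-associated protein of neurons, had 1 chain at 25.2 TPM in KO and 88.4 TPM in WT native RNA, and 0.113 TPM in KO and 5.73 TPM in WT cDNA. A second unannotated Map2 chain went the other way, with 85.9 TPM in KO and 43.3 TPM in WT native RNA, and 5.33 TPM in KO and 2.03 TPM in WT cDNA. The gene level did not pass the test (267 ± 44.8 CPM in KO and 299 ± 59.7 CPM in WT, SD, n = 4 each, adjusted p = 0.43, edgeR). Gtf2i (205 ± 26.0 CPM in KO and 226.5 ± 38.6 CPM in WT) and Trim37 (33.3 ± 2.79 CPM in KO and 33.8 ± 4.76 CPM in WT) did not pass either, while Sept6 rose by 0.99 on the log2 scale (39.5 ± 4.42 CPM in KO and 19.9 ± 1.52 CPM in WT, adjusted p = 1.6e-05, edgeR).

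**Figure D3:**
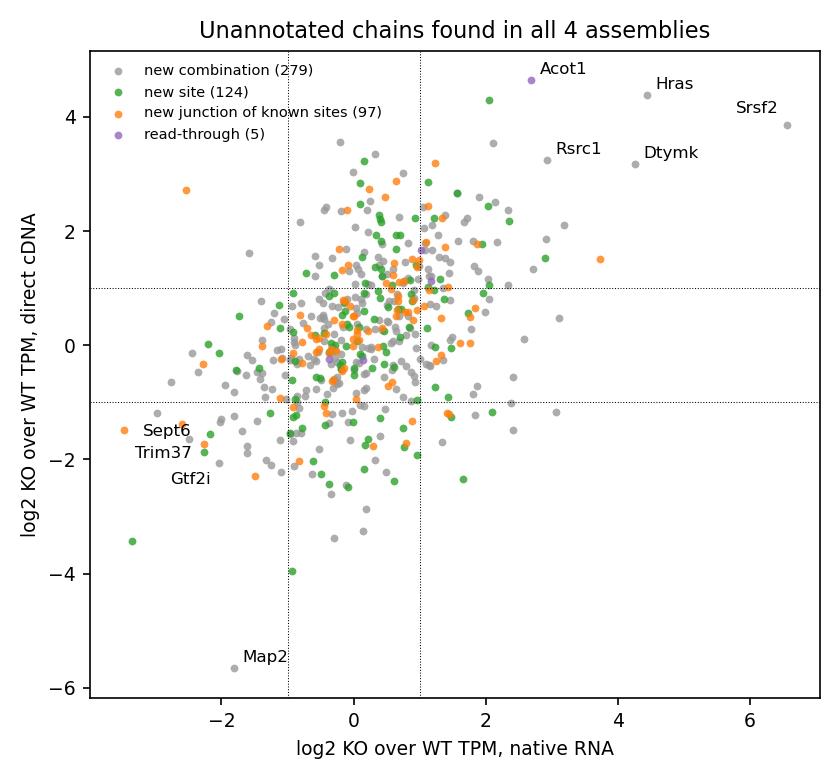
Log2 KO over WT TPM of the 505 unannotated chains found in all 4 assemblies, in native RNA (x axis) and direct cDNA (y axis), coloured by type, with dotted lines at 2-fold. Srsf2, Hras and Dtymk lie at the upper right (59 chains are at least 2-fold higher in both) and Map2 at the bottom (23 are at least 2-fold lower in both).

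Read-throughs were rare, with 8 chains in KO (0.649%) and 17 in WT (1.14%). A chain joining Nxf1 to Tmem223 had 91.0 TPM in KO and 40.5 TPM in WT native RNA, and 5.19 TPM in KO and 2.38 TPM in WT cDNA. Nxf1, an mRNA export receptor, was at 84.8 ± 8.33 CPM in KO and 68.7 ± 6.17 CPM in WT ladder libraries (SD, n = 4 each, adjusted p = 0.034, edgeR), a call lost without KO 2 or 3 or WT 1, 2 or 3 (adjusted p 0.0537 to 0.0979). A chain joining Metrn to Fam173a had 19.4 TPM in KO and 9.60 TPM in WT native RNA, and Fam173a rose by 0.78 on the log2 scale (82.9 ± 22.6 CPM in KO and 48.2 ± 3.04 CPM in WT, adjusted p = 0.0019, edgeR). A chain joining Acot2 to Acot1 had 49.7 TPM in KO and 7.71 TPM in WT native RNA, but these thioesterase genes are near-identical copies, so that its assignment is uncertain, as is the level of Acot1 (168 ± 16.9 CPM in KO and 64.2 ± 4.01 CPM in WT ladder libraries, adjusted p = 1.1e-06, edgeR).

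Over all 2217 chains, 55.6% were in KO and 67.2% in WT, 16.5% were KO-only and 23.1% WT-only. Their hosts were 991 genes in KO and 1116 in WT, while 18687 genes were tested in ladder libraries. The share of all genes that hold such a chain was not computed. The number of genes with a chain in a list, also where it is none, is thus not a trait of that list. Among gene lists, splicing factors other than SR and hnRNP proteins held 25 chains in 17 of 47 genes, with 6 in KO and 22 in WT. None of the 25 was KO-only and 9 were WT-only, among them chains of Sf3b1, Snrpn, Qk and Nova1. SR genes held 12 chains in 7 of 15 genes (6 in KO, 11 in WT) and hnRNP genes 26 chains in 12 of 26 (16 in KO, 19 in WT). Pcbp2, an RNA-binding protein of the hnRNP group, held 6 chains, and its gene level did not pass the test (193 ± 6.60 CPM in KO and 185 ± 14.6 CPM in WT, SD, n = 4 each, adjusted p = 0.61, edgeR). Respiratory chain genes held 15 chains in 9 of 97 (11 in KO, 7 in WT), and nonsense-mediated decay factors held none in 15 genes. Genes of m6A writers, readers and erasers held 4 chains in 3 of 22 genes, of which the 2 of Mettl14, the targeted gene, and the 1 of Rbm15 were KO-only. Cytosolic ribosomal protein genes held 8 chains in 7 of 93 genes (6 in KO, 6 in WT), and histone-modifying enzymes 7 in 4 of 43 (2 in KO, 7 in WT).

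Ladder libraries gave the level of the host genes. Over all 18687 genes tested, 26.4% were higher and 27.2% lower in KO. Of 329 tested hosts of KO-only chains, 116 were higher (35.3%) and 62 lower (18.8%), with a median log2 of 0.12. Of 431 hosts of WT-only chains, 93 were higher (21.6%) and 135 lower (31.3%), with a median of -0.08. Hosts of shared chains had 112 higher (26.0%) and 101 lower (23.4%) of 431. The 35 genes with an intron inside an exon in KO assemblies only had 17 higher (48.6%) and 5 lower (14.3%), with a median of 0.29, while those with such an intron in both had 5 higher and 5 lower of 32. Presence of a chain in an assembly depends on the level of its gene, and its part in these counts was not tested.

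Of those 35 genes, Gjc1, a gap junction protein, rose by 2.91 on the log2 scale (22.3 ± 0.987 CPM in KO and 2.97 ± 0.417 CPM in WT, SD, n = 4 each, adjusted p = 1.3e-08, edgeR). Med18, a Mediator subunit, was at 12.4 ± 0.719 CPM in KO and 3.62 ± 0.552 CPM in WT, Chst14, a dermatan sulfotransferase, at 15.3 ± 1.44 CPM in KO and 4.33 ± 0.878 CPM in WT, and Mfsd5 at 71.2 ± 4.28 CPM in KO and 22.6 ± 2.87 CPM in WT. In each of these the libraries did not overlap and the rise passed the test. Pou3f3 (352 ± 41.8 CPM in KO and 216 ± 38.9 CPM in WT) and Nr2f1 (161 ± 17.3 CPM in KO and 87.2 ± 13.3 CPM in WT), both transcription factors, rose too. Inka2 (199 ± 15.1 CPM in KO and 346 ± 64.0 CPM in WT) fell by 0.80 on the log2 scale, and Sertm1 (6.27 ± 0.549 CPM in KO and 15.6 ± 0.901 CPM in WT) by 1.31. Thap12 (106 ± 9.85 CPM in KO and 80.8 ± 12.3 CPM in WT) passed at an adjusted p of 0.023 in edgeR, a call lost without KO 2 or KO 3 (adjusted p = 0.0585 and 0.056).

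Fbxl5, Rhoq, Traf4 and Trib2 did not pass the test at gene level. Fbxl5 had 31.3, 31.9, 34.6 and 23.8 CPM in KO ladder libraries, against 38.4, 37.5, 37.2 and 36.1 CPM in WT ladder libraries, with no overlap (adjusted p = 0.053, edgeR), and it passed without KO 3 (adjusted p = 0.035). Rhoq had 223 ± 24.1 CPM in KO and 185 ± 19.9 CPM in WT (adjusted p = 0.080, edgeR, 0.0237 without KO 4 and 0.0325 in DESeq2), Traf4 193 ± 15.8 CPM in KO and 237 ± 31.8 CPM in WT (adjusted p = 0.062, edgeR, and 0.0122 without WT 2), and Trib2 110 ± 7.10 CPM in KO and 93.5 ± 15.9 CPM in WT (adjusted p = 0.16, edgeR). Hosts of the WT-only examples Fam13c (24.6 ± 2.27 CPM in KO and 24.9 ± 6.77 CPM in WT), Tox3 (6.76 ± 2.53 CPM in KO and 6.31 ± 2.57 CPM in WT) and Trappc13 (29.4 to 34.2 CPM in KO and 31.1 to 33.8 CPM in WT) did not pass, and AU022252 rose by 0.72 on the log2 scale (28.5 ± 5.34 CPM in KO and 17.3 ± 3.17 CPM in WT, adjusted p = 0.0028, edgeR).

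**Figure D4:**
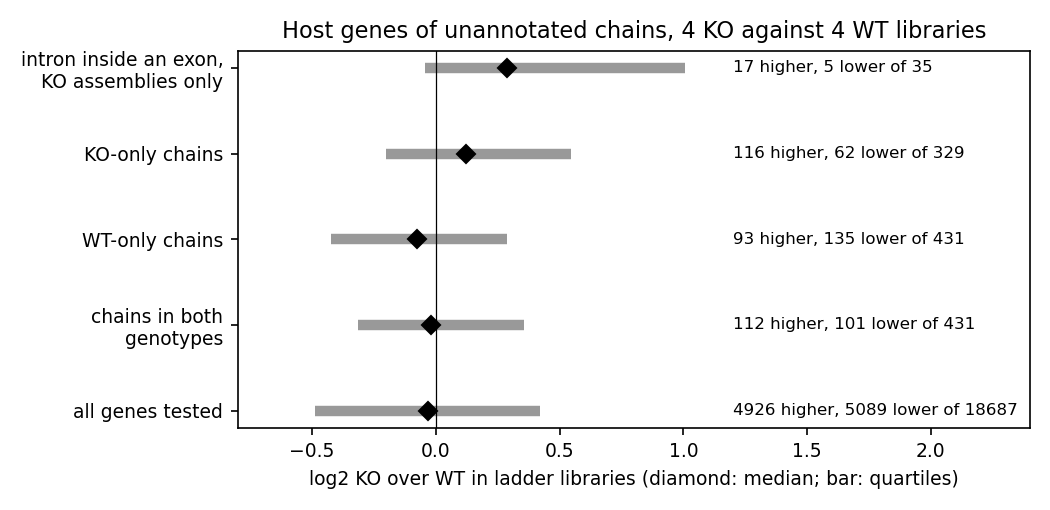
Log2 KO over WT of host genes in ladder libraries (x axis), as the median (diamond) and quartiles (bar) of each set, with the number of genes higher and lower in KO. The median was 0.29 for genes with an intron inside an exon in KO assemblies only and -0.03 for all 18687 genes tested.

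**Figure D5:**
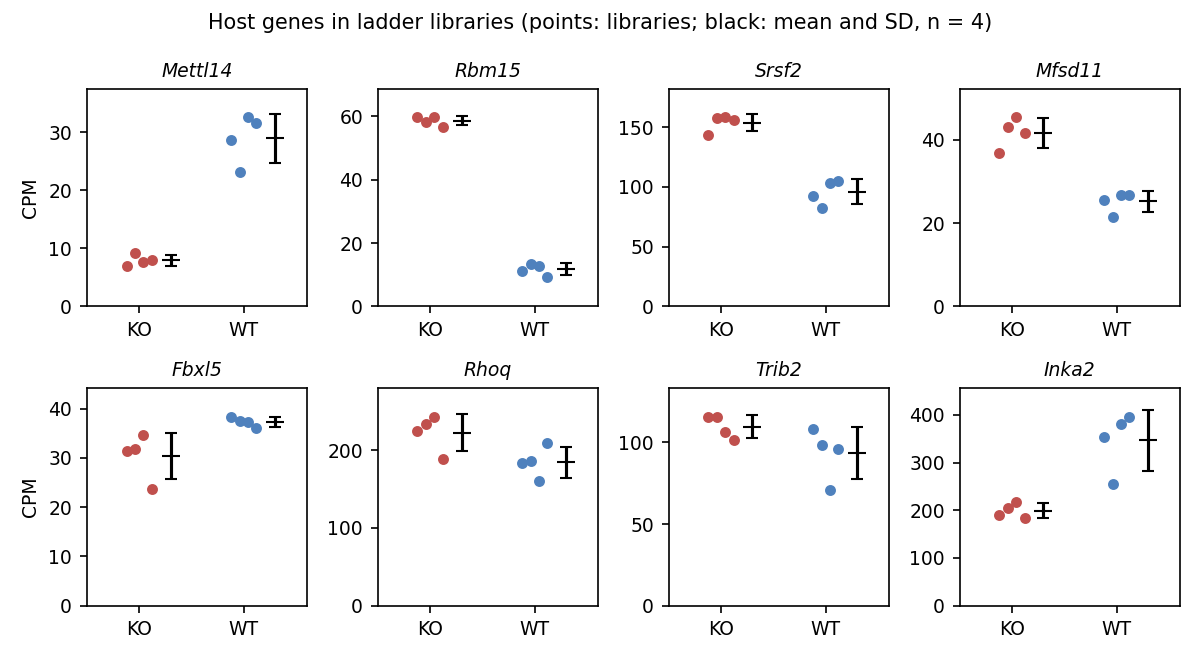
CPM (y axis) of 8 host genes in each KO (red, left) and WT (blue, right) ladder library, with the mean and SD in black (n = 4). KO and WT libraries do not overlap for Mettl14, Rbm15, Srsf2, Mfsd11, Fbxl5 and Inka2, and overlap for Rhoq and Trib2. The genes were picked with their values known. Over all 18687 genes tested, 26.4% were higher and 27.2% lower in KO, and genes without overlap were not counted.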

How the data were processed

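The authors' long-read structures were deposited as assemblies by StringTie 2.0 in long-read mode without a guide annotation, per the file headers, with a TPM and a coverage signal per transcript, and as FLAIR structures without abundance. The header of the native KO assembly names its reads m6a-KD, while the labels say knock out. The submitters' processing notes list minimap2, STAR and kallisto with GRCm38 (mm10). The deposited ladder files hold estimated counts per transcript as written by kallisto, per the file headers. Assembled targets without a structure in the sources used here, 11338 of them, took 11.9% to 13.4% of these counts and were left out of genes, so host levels may miss unannotated isoforms.

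Intron chains were compared exactly with GENCODE M21. A chain was typed as read-through, new site, new junction or new combination, in that order. FLAIR sites were annotated in 99.997% to 99.999% of cases, so FLAIR cannot support a new site. Per gene, estimated counts were summed and rounded. The quasi-likelihood test of edgeR 4.0.16 in R 4.3.3, with the default filterByExpr and TMM factors, compared 4 KO with 4 WT libraries, with Benjamini-Hochberg adjustment and a threshold of 0.05. The labels name no separate cultures, so p-values measure the spread between these samples, which may be technical. Alternatives were other scaling, no filter, DESeq2 1.42.0, a replicate block, leaving out each library, and other rules for chains.

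Members, lists and tests were chosen with earlier results of these data known. Named chains were Mettl14, the first 3 of each type and set by TPM rank, the 4 highest shares of host coverage among detectable KO-only and WT-only chains, the 4 highest and 4 lowest shared chains, and up to 2 per gene list. Introns inside 1 annotated exon, and the genes named for them, were singled out after 4 types and 6 classes of new sites had been compared. Their support in the other genotype was first measured by multi-exon coverage of the host gene and then, after values were seen, by unspliced coverage of the exon, because the first measure misses single-exon transcripts. Both counts are given. Of 131 hosts of named chains or of such introns, ladder values are printed for 35, which were picked with their values known. For how many of all genes tested the KO and WT libraries do not overlap was not counted, so a lack of overlap has no background here.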

Additional observations from a re-analysis of the deposited data

Results flagged for a closer look

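Dixon's rule compares the gap of 1 library to the nearest other, as a share of the range of the 4, with a critical value. In the 70 groups of 4 ladder libraries of the 35 host genes whose levels are given, 7 exceeded it. Chance gives about 1 in 20. Over all 131 hosts considered for the text it was 16 of 262 groups. In KO libraries these were Srsf2 (lowest at 143 CPM), Mfsd5 (highest at 77.6 CPM) and Chst14 (highest at 17.4 CPM). In WT libraries these were Ppp3ca (lowest at 116 CPM), Thap12 (lowest at 62.5 CPM), Rsrc1 (lowest at 14.7 CPM) and Gtf2i (lowest at 169 CPM). All 4 of the WT values belong to WT 3. What sets these libraries apart was not tested.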

How the results depend on the processing

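Counts of chains moved with the rule. At 1 TPM or more in both chemistries there were 311 KO, 315 WT, 137 shared, 50 KO-only and 31 WT-only chains. At a coverage of 5 or more there were 477 KO, 628 WT, 239 shared, 74 KO-only and 109 WT-only chains. Counting sites within 10 bases of an annotated site as annotated left 1175 KO, 1408 WT, 466 shared, 358 KO-only and 496 WT-only chains. With support by FLAIR as well there were 771 KO, 931 WT, 174 KO-only and 259 WT-only chains, and with FLAIR in place of StringTie 987 shared, 55 KO-only and 100 WT-only. The share with a new site was 21.73% in KO and 20.83% in WT with partial chains, 26.37% and 23.17% at 1 TPM, 26.21% and 25% at a coverage of 5, 25.24% and 24.41% at 2 introns or more, 0.0% in both with FLAIR support, and 0.06502% and 0.06353% with FLAIR alone. The share with a new junction was 18.04% in KO and 11.72% in WT with partial chains, 34.5% and 22.66% with FLAIR support, and 33.75% and 27.7% with FLAIR alone. It was 19.29% in KO and 14.92% in WT at 1 TPM and 21.59% in KO (18.1 to 25.5) and 15.92% in WT (13.3 to 19) at a coverage of 5, with overlapping counting intervals under both. Read-throughs at 1 TPM were 1.286% in KO and 2.222% in WT. FLAIR holds nearly only annotated sites, which accounts for its values on new sites, and a minimum leaves fewer chains. The cause of the other shifts was not tested.

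Alternatives added after the data were seen gave, for introns inside an exon found in 1 genotype only, 38 in KO and 4 in WT with GT-AG ends, 34 and 4 where the exon was assembled unspliced in both chemistries of the other genotype, 30 and 3 by the earlier measure, multi-exon coverage of the host gene, and 19 and 4 at 5 TPM or more in native RNA.

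Counts of host genes stayed within 1.5 times of the reported ones under every alternative run. Leaving out each library gave 4451 to 4854 genes higher and 4508 to 5104 lower in KO, 103 to 113 and 45 to 63 for hosts of KO-only chains, 81 to 92 and 108 to 141 for WT-only, and 95 to 112 and 79 to 107 for shared chains. Replicate numbers did not pair the libraries (correlations of same-numbered deviations -0.02 to 0.05), and a replicate block gave 4922 genes higher and 5026 lower. Among the genes named it ended the calls of Nxf1 (adjusted p = 0.0593) and Rsrc1 (0.199) and added Fbxl5 (0.0476). Removing chains by intron end letters was not run, since no genome sequence was used here. Depth limits which chains of 1 genotype could be seen in the other.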
